A study of Mus musculus with 2 samples.

Results

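Cytochrome P450 genes of families 1 to 4 were examined as antigens of peripheral organs in medullary thymic epithelial cells (mTECs) of mice. They are the 75 genes, of 31053 in each matrix, whose symbol is made of Cyp, a family number of 1 to 4, a subfamily letter and a gene number. Family 1 holds 3 of them, family 2 holds 48, family 3 holds 7 and family 4 holds 17. The cells were freshly sorted from thymus as EPCAM-positive and Ly51-negative and captured with a 10x Genomics 3′ kit. There was 1 library labelled Foxn1-Cre(+) Ikarosfl/fl and 1 labelled Foxn1-Cre(+) Ikaros+/fl, called the fl/fl-labelled and the +/fl-labelled library here. Both carry Foxn1-Cre, which acts in thymic epithelium, and the floxed gene encodes Ikaros (Ikzf1), a transcription factor best known in lymphocytes. The labels give no age, sex or number of mice, and the submitters' names for the matrices call the fl/fl-labelled library a control and the +/fl-labelled library a knockout.

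P450 enzymes of these families are membrane-bound monooxygenases that oxidise drugs, pollutants, steroids and fatty acids, using electrons passed on by the reductase Por. Most are made in liver, gut, kidney, airway, olfactory mucosa or skin, and P450 proteins are among the known autoantigens of autoimmune hepatitis and of people who lack AIRE. Mature mTECs transcribe tissue-restricted genes under the control of Aire, each gene in few cells, whereas mimetic mTECs carry the programme of a single peripheral cell type.

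The members' promoters differed in base make-up from those of most genes. RefSeq promoters of the build GRCm38.p6, running from 250 bases before the start to 50 after it, were matched by symbol for 62 of the 75 members. The TATA core TATAAA, searched on both strands, was in 26 of these 62 (41.9%), against 13.6% of all 32851 promoters. On the gene's own strand, 45 to 10 bases before the start, it was in 12 members (19.4%), against 2.22% of all promoters. The median number of CG pairs was 2 in members and 7 in all promoters. The GC box GGGCGG, on both strands, was in 19.4% of members and 35.7% of all promoters, and GCGTG, the core bound by the aryl hydrocarbon receptor, was in 21.0% and 32.4%. The 6 matched members that are listed as widely expressed had a median of 11.5 CG pairs and no TATA core. The 15 matched members that a single cell group held had a median of 2 CG pairs and 7 had the core, and the other 41 also had a median of 2, with the core in 19. A match describes letters only and is not a bound site. The promoters below are printed 5′ to 3′ on the gene's strand, with TATAAA and CG in capitals. They are those of Cyp2a5 (chr7:26835089-26835388, plus strand), the member with most UMIs, of Cyp1a2 (chr9:57683606-57683905, minus strand), found in few cells of an Aire-rich cluster, of Cyp2c29 (chr19:39286835-39287134, plus strand), seen in 1 library, of Cyp2f2 (chr7:27119705-27120004, plus strand), which has neither motif nor CG pair, and of Cyp4v3 (chr8:45333114-45333413, minus strand), a widely expressed member with 17 CG pairs.
Cyp2a5: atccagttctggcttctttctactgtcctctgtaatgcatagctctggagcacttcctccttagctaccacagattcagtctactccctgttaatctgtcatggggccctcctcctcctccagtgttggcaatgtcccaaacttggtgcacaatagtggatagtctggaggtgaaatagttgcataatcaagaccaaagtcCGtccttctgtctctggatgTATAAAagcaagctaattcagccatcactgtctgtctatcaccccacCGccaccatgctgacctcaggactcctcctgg
Cyp1a2: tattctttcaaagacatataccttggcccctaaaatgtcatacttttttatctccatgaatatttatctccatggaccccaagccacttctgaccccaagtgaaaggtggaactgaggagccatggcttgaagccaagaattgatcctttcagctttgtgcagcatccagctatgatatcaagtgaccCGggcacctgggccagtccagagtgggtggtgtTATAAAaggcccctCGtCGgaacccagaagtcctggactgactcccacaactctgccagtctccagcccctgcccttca
Cyp2c29: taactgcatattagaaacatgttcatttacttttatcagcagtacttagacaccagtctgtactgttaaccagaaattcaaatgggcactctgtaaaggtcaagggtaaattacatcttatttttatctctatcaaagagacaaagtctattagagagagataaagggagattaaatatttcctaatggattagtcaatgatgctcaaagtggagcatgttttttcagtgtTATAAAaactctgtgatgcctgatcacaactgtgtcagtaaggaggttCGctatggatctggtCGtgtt
Cyp2f2: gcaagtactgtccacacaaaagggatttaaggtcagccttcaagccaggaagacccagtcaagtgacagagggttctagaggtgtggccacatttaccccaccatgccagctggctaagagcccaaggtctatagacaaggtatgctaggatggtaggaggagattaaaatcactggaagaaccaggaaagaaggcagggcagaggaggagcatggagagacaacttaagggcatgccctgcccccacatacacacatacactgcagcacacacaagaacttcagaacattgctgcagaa
Cyp4v3: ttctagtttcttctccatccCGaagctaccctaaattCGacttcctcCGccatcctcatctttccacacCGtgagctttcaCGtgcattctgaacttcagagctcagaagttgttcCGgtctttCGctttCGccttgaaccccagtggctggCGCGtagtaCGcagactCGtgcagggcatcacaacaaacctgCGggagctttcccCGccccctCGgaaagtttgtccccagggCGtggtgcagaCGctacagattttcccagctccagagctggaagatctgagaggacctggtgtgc

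After filters, 7669 cells with 80897462 UMIs were kept in the fl/fl-labelled library and 4891 cells with 66675011 UMIs in the +/fl-labelled library, with medians of 8187 (fl/fl-labelled) and 10731 (+/fl-labelled) UMIs per cell. Each genotype has 1 library, so no test was possible and no difference has a replicate check. Levels are UMIs per 1000000 UMIs (CPM) with exact Poisson intervals at 95%, and shares of cells have exact Clopper-Pearson intervals, both of which cover counting error only. The kit counts 3′ ends, so levels were not divided by gene length. Ikzf1 had 37.7 CPM in the fl/fl-labelled library and 64.5 CPM in the +/fl-labelled library, and 3′ tags do not show whether a floxed exon is present. Xist, which marks female cells, had 0.902 CPM (fl/fl-labelled) and 1317 CPM (+/fl-labelled), and the Y-linked Ddx3y had 64.5 CPM (fl/fl-labelled) and 0 CPM (+/fl-labelled). Labelled genotype and sex therefore cannot be told apart. Epcam, the gene of the sort, had 1143 CPM in the fl/fl-labelled library and 1162 CPM in the +/fl-labelled library, and clusters with myeloid and dendritic markers made up 4.20% of fl/fl-labelled and 7.24% of +/fl-labelled kept cells. The libraries shared 25 barcodes, 10 of them among kept cells.

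Nearly all members were detected, and more of them in the fl/fl-labelled library. At 3 or more UMIs over kept cells, 69 of the 75 were detected in the fl/fl-labelled library and 47 in the +/fl-labelled library, and all 47 were among the 69. The 22 members detected only in the fl/fl-labelled library had 4 to 239 UMIs there, with a median of 13.5. Of these 22, 16 had 0 UMIs in the +/fl-labelled library, which allows a level of up to 0.0450 CPM each (3 UMIs). When the UMIs of the fl/fl-labelled library were thinned to the total of the other, 68.7 members were still expected to be detected. Detection of all genes at the same minimum was not computed, so these counts do not set the members apart from other genes. The 6 members under 3 UMIs in both libraries were Cyp2a22, Cyp2c38, Cyp2w1, Cyp4a29, Cyp4a32 and Cyp4f37, and the last pair had no UMI at all.

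Together the members made up 722 CPM (716 to 728) in the fl/fl-labelled library and 379 CPM (375 to 384) in the +/fl-labelled library. Cyp2a5 gave more of them than any other member. Cyp2a5, a coumarin and nicotine hydroxylase of liver and olfactory mucosa, had 442 CPM (437 to 446) in the fl/fl-labelled library and 149 CPM (146 to 152) in the +/fl-labelled library. That was 61.2% of the members' UMIs in the fl/fl-labelled library and 39.2% in the +/fl-labelled library. Without Cyp2a5 the members summed to 279.98 CPM (fl/fl-labelled) and 231 CPM (+/fl-labelled). By subfamily, Cyp2a held 54.7% of member UMIs over both libraries, Cyp2g 11.9%, Cyp2f 9.02%, Cyp4f 6.995% and Cyp2j 6.20%, whereas the 15 Cyp2c genes, most of them hepatic enzymes, held 0.859%.

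The other airway and olfactory members came next. Cyp2f2, which activates naphthalene in the club cells of the airway, had 64.1 CPM (62.4 to 65.9) in the fl/fl-labelled library and 35.4 CPM (34.0 to 36.9) in the +/fl-labelled library. Cyp2g1, an enzyme of the olfactory mucosa, had 48.3 CPM (46.8 to 49.9) in the fl/fl-labelled library and 90.5 CPM (88.2 to 92.8) in the +/fl-labelled library, and was the most abundant member that was higher in the +/fl-labelled library. Cyp4b1, a lung enzyme, was rare, at 0.532 CPM in the fl/fl-labelled library and 0.690 CPM in the +/fl-labelled library. The skin member Cyp2b19, an arachidonate epoxygenase of keratinocytes, had 10.2 CPM in the fl/fl-labelled library and 4.004 CPM in the +/fl-labelled library.

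Of the 8 widely expressed members, 6 differed by less than 2-fold between the libraries. Of all genes tested over kept cells, 10.2% were higher by 2-fold or more in the fl/fl-labelled library and 2.43% were lower. Most genes thus also stayed within 2-fold, and the count does not set these members apart as more stable than other genes. Cyp2j6, a fatty acid epoxygenase, had 21.6 CPM in the fl/fl-labelled library and 29.4 CPM in the +/fl-labelled library, and Cyp4v3, the counterpart of human CYP4V2, had 11.3 CPM (fl/fl-labelled) and 14.97 CPM (+/fl-labelled). Cyp4f13 had 9.48 CPM in the fl/fl-labelled library and 10.2 CPM in the +/fl-labelled library, with intervals that overlap. Cyp2s1 had 3.52 CPM (fl/fl-labelled) and 2.01 CPM (+/fl-labelled), Cyp2d22 had 1.21 CPM (fl/fl-labelled) and 1.72 CPM (+/fl-labelled), and Cyp2r1, a vitamin D hydroxylase, had 0.569 CPM (fl/fl-labelled) and 0.630 CPM (+/fl-labelled). Cyp4f16 and Cyp2u1 stood out in this group, with 30.5 and 2.15 CPM in the fl/fl-labelled library against 12.8 and 0.465 CPM in the +/fl-labelled library. Of other members outside the lists, Cyp3a13, a P450 best known outside the liver, had 17.8 CPM (fl/fl-labelled) and 3.54 CPM (+/fl-labelled), Cyp2j9 had 4.18 CPM (fl/fl-labelled) and 7.03 CPM (+/fl-labelled), and Cyp2j13 had 4.51 CPM (fl/fl-labelled) and 2.77 CPM (+/fl-labelled).

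Liver enzymes and targets of the aryl hydrocarbon receptor were low in the sum of all cells. Cyp1a2, the main caffeine-oxidising enzyme of liver, had 7.503 CPM (6.92 to 8.12) in the fl/fl-labelled library and 2.44 CPM (2.08 to 2.85) in the +/fl-labelled library. Of the receptor's other targets, Cyp1b1 had 2.60 CPM (fl/fl-labelled) and 3.39 CPM (+/fl-labelled), and Cyp1a1 had 1.51 CPM (fl/fl-labelled) and 1.24 CPM (+/fl-labelled). Cyp4f14, a leukotriene hydroxylase, had 4.15 CPM (fl/fl-labelled) and 0.960 CPM (+/fl-labelled). Its relative Cyp4f18 of neutrophils had 4.05 CPM (fl/fl-labelled) and 1.05 CPM (+/fl-labelled). Cyp4f15 had 1.66 CPM (fl/fl-labelled) and 0.555 CPM (+/fl-labelled). All of these were found in both libraries. Cyp2c29 was not: it had 239 UMIs (2.95 CPM) in the fl/fl-labelled library and 0 in the +/fl-labelled library (0 to 0.0553 CPM). Its fl/fl-labelled level is 65.7-fold the level that 3 UMIs would have in the +/fl-labelled library. Of its 239 UMIs, 58 came from 1 cell and 3 cells held 50% of them. Cyp3a11, the main hepatic enzyme of family 3, had 1.84 CPM (fl/fl-labelled) and 0.210 CPM (+/fl-labelled), and Cyp3a25 had 1.40 CPM (fl/fl-labelled) and 0.180 CPM (+/fl-labelled). Cyp2c68 had 1.67 CPM (fl/fl-labelled) and 0.240 CPM (+/fl-labelled), and Cyp2d9, known to be higher in male than female mouse liver, had 1.52 CPM (fl/fl-labelled) and 0.210 CPM (+/fl-labelled). Cyp2d12 had 3.42 CPM in the fl/fl-labelled library and 0.330 CPM in the +/fl-labelled library, and Cyp2d34 had 1.68 CPM (fl/fl-labelled) and 0.360 CPM (+/fl-labelled). The other 11 members with 50 or more UMIs had at most 1.09 CPM in either library, and 29 more had 3 to 49 UMIs over both.

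**Figure D1:**
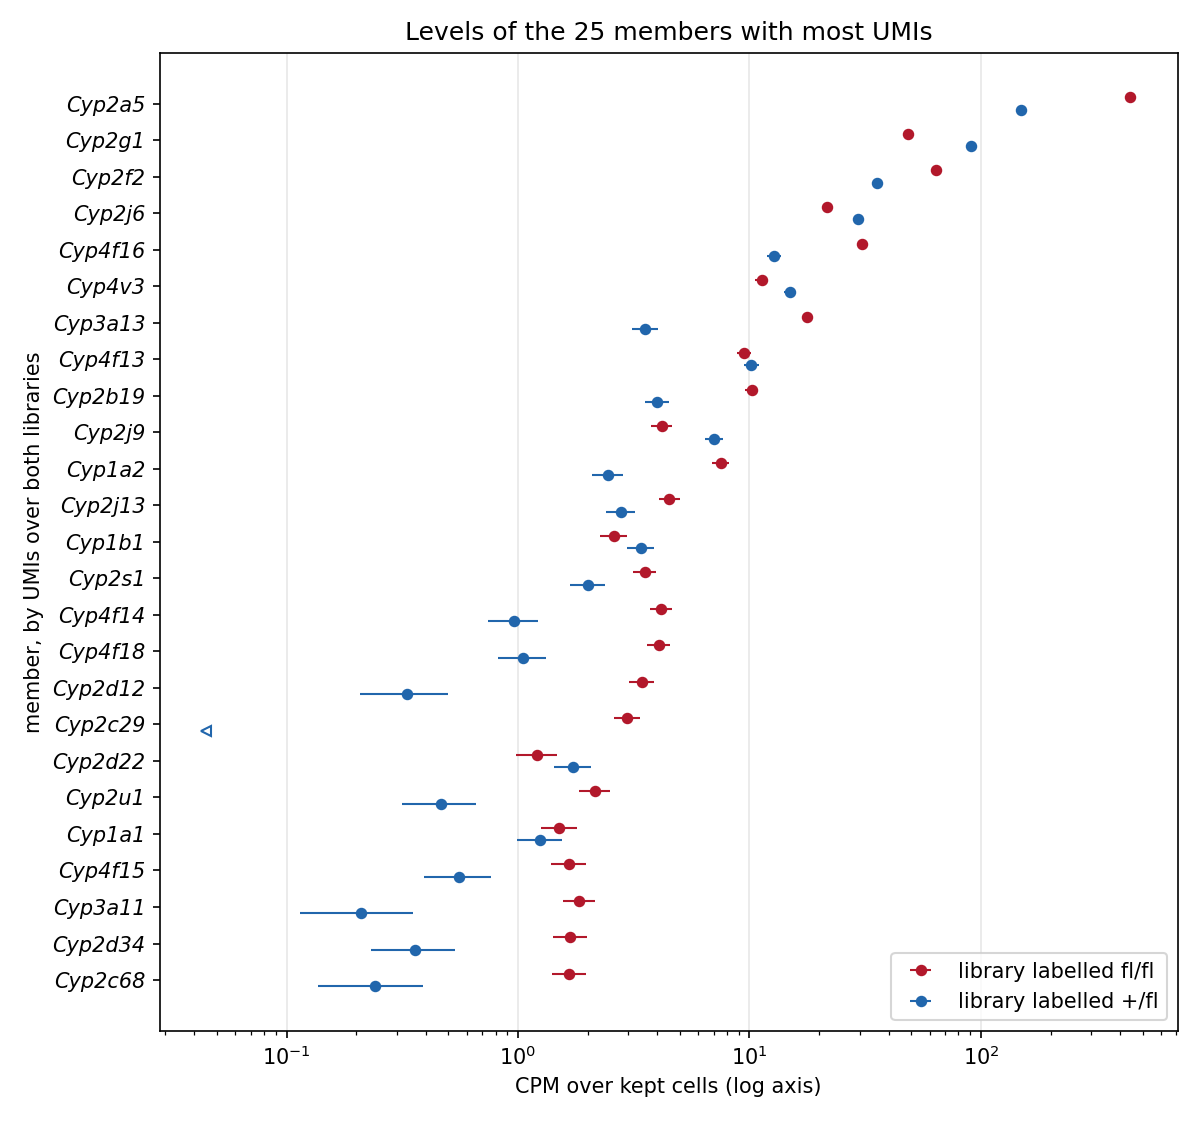
Levels of the 25 members with most UMIs over kept cells, in CPM on a log axis, in the fl/fl-labelled library (red, upper) and the +/fl-labelled library (blue, lower), with exact 95% Poisson bars. The open arrow marks the level of 3 UMIs for Cyp2c29, which had 0 UMIs in the +/fl-labelled library, and Cyp2a5 stands highest in both libraries at 442 CPM (fl/fl-labelled) and 149 CPM (+/fl-labelled).

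Members differed in how their UMIs were spread over cells. Cyp1a2 had 770 UMIs in 95 cells, and 9 cells held 50% of them, with 73 in the highest cell. Cyp4f14 had 8 cells holding 50% of its UMIs among 70 positive cells, Cyp3a11 had 4 of 50 and Cyp2a12 had 3 of 20. Yet 1 UMI was all that was seen in 50.5% of the positive cells of Cyp1a2, 40% of those of Cyp4f14 and 60% of those of Cyp3a11 and of Cyp2a12. Cyp2a5 was both broad and concentrated, with UMIs in 3442 cells, 176 of which held 50%, and 795 in the highest. At the other end, Cyp4f13 had 1 UMI in 89.0% of its 1258 positive cells, and Cyp4f17 had 1 UMI in each of its 93.

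At equal depth, the number of members per mTEC differed by Aire status in opposite directions in the libraries. Each mTEC was thinned to 5000 UMIs, which left out 2213 of 7166 mTECs (30.9%) in the fl/fl-labelled library and 955 of 4208 (22.7%) in the +/fl-labelled library, and a cell with 1 or more Aire UMIs after thinning was called Aire-positive. In the fl/fl-labelled library, Aire-positive mTECs had 0.976 ± 1.06 members (SD over 2532 cells) and Aire-negative mTECs 1.15 ± 1.20 (2421 cells). Means of the +/fl-labelled library were 0.974 ± 1.02 in 936 Aire-positive and 0.852 ± 0.981 in 2317 Aire-negative mTECs. At least 1 member was seen in 59.8% of Aire-positive (57.8 to 61.7%) and 63.2% of Aire-negative mTECs (61.2 to 65.1%) of the fl/fl-labelled library, a difference of -3.44 percentage points. The +/fl-labelled library had shares of 60.5% of Aire-positive (57.3 to 63.6%) and 54.9% of Aire-negative mTECs (52.8 to 56.9%), a difference of 5.61 points. Genes per thinned cell averaged 1996 in Aire-positive and 2031 in Aire-negative mTECs of the fl/fl-labelled library and 2051 in Aire-positive and 2068 in Aire-negative mTECs of the +/fl-labelled library. Without thinning, the shares were 76.8% of Aire-positive mTECs (median depth 13419.5 UMIs) and 60.7% of Aire-negative mTECs (10582 UMIs) in the fl/fl-labelled library. For the +/fl-labelled library they were 80.4% of Aire-positive mTECs (19482 UMIs) and 63.5% of Aire-negative mTECs (12722 UMIs).

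Cells outside the epithelium also had UMIs of Aire and of members. At 5000 UMIs, 51.1% of mTECs had an Aire UMI in the fl/fl-labelled library and 28.8% in the +/fl-labelled library, but so had other cells. In the myeloid and dendritic clusters these were 38.0% of the fl/fl-labelled and 27.0% of the +/fl-labelled cells, and among T-lineage cells 57.4% of the fl/fl-labelled and 28.6% of the +/fl-labelled cells. In the +/fl-labelled library the share of mTECs at 1 or more Aire UMIs thus lies close to that of cells outside the epithelium. In the fl/fl-labelled library it lies above the share of myeloid cells (30.9 to 45.5%). The share of T-lineage cells there rests on 54 cells, and its interval (43.2 to 70.8%) covers the share of mTECs. Where the Aire UMIs of cells outside the epithelium came from was not tested. At 5 or more Aire UMIs the shares were 9.81% of mTECs and 2.23% of myeloid cells in the fl/fl-labelled library. They were 2.12% of mTECs and 0.820% of myeloid cells in the +/fl-labelled library. T-lineage cells had 1.85% (fl/fl-labelled) and 2.04% (+/fl-labelled), each from 1 cell. In the +/fl-labelled library the intervals of myeloid (0.0994 to 2.93%) and T-lineage cells (0.0517 to 10.9%) cover the share of mTECs. A member was seen in 36.9% of myeloid cells in the fl/fl-labelled library and 31.1% in the +/fl-labelled library, and Cyp2a5 alone in 14.0% (fl/fl-labelled) and 8.61% (+/fl-labelled). With more Aire UMIs (0, 1, 2, 3 to 4, and 5 or more), the share of mTECs with a member was 63.2, 63.4, 57.1, 56.5 and 58.0% in the fl/fl-labelled library. For the +/fl-labelled library it was 54.9, 57.1, 62.8, 65.5 and 69.6%, higher at each step. Myeloid cells of the +/fl-labelled library also differed by Aire status, with a member in 47.0% of Aire-positive (34.6 to 59.7%) and 25.3% of Aire-negative cells (19.1 to 32.3%), while the fl/fl-labelled library had 38.2% of Aire-positive and 36.0% of Aire-negative myeloid cells. Without Cyp2a5, the mean number of members per mTEC over the same steps was 0.752, 0.750, 0.723, 0.730 and 0.841 in the +/fl-labelled library, the last from 69 cells. In the fl/fl-labelled library it was 0.860, 0.812, 0.699, 0.653 and 0.626, lower at each step.

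**Figure D2:**
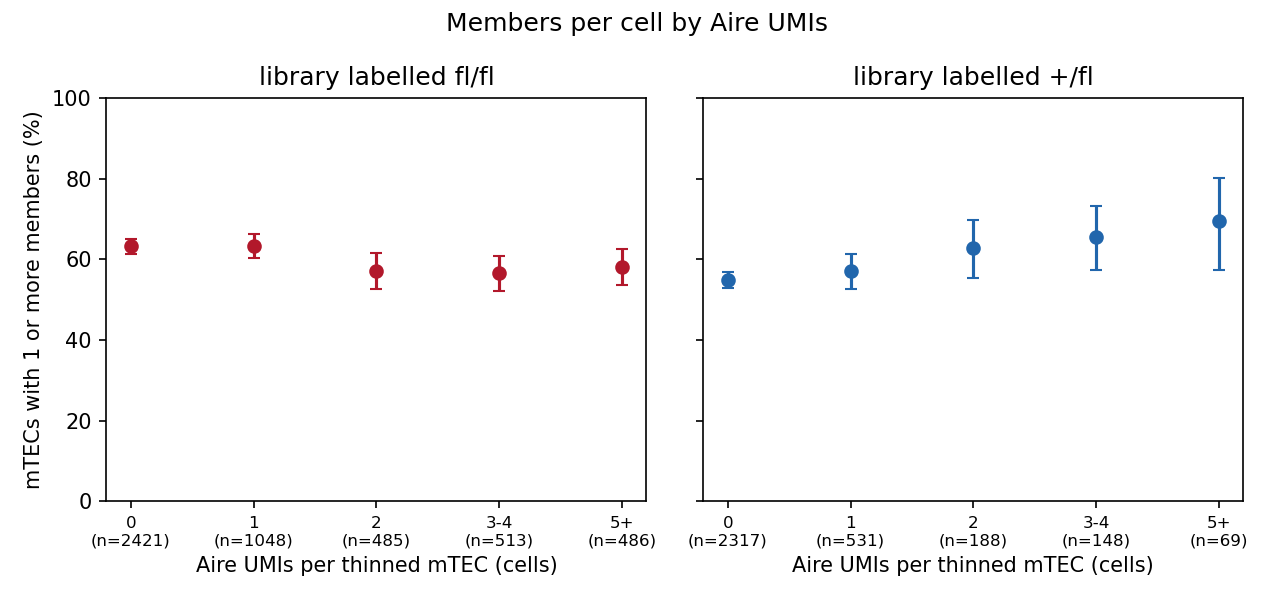
Percent of thinned mTECs with at least 1 member, by the number of Aire UMIs in the same cell, in the fl/fl-labelled library and in the +/fl-labelled library, with exact 95% Clopper-Pearson bars. The share was 63.2% at 0 and 58.0% at 5 or more Aire UMIs in the fl/fl-labelled library, and 54.9% at 0 and 69.6% at 5 or more in the +/fl-labelled library. Without Cyp2a5, the mean number of members in the +/fl-labelled library was 0.752 at 0, 0.730 at 3 to 4 and 0.841 at 5 or more Aire UMIs. In the fl/fl-labelled library it was 0.860 at 0 and 0.626 at 5 or more.

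Breadth differed more between cell groups than by Aire status. Clusters, made without the members, were named as alike to a cell type from fixed markers. The cluster called Secretory-like is a mixed one: it was led by Agr2 and Tff1, but most of its other leading genes, such as Spink5, Krt6a, Calm4 and Crct1, are known from keratinocytes. The mean log2 fold was 5.54 for the secretory markers and 5.21 for the keratinocyte markers. At a cluster resolution of 2 there was a separate Keratinocyte-like cluster. The cluster called Aire-stage mTEC-like was led by the kallikrein genes Klk1b26, Klk1b16 and Klk1b11 and was not the richest in Aire. It had 276 CPM of Aire over both libraries, below the unnamed clusters 7 (675 CPM), 5 (433 CPM) and 2 (323 CPM) and cycling cells (306 CPM). In the fl/fl-labelled library, a member was seen in 94.96% of thinned Enterocyte-hepatocyte-like, 93.6% of Secretory-like, 72.8% of Neuroendocrine-like and 70.2% of Tuft-like cells, but in 38.1% of Immature mTEC-like cells, which is near the myeloid share. The same groups had 100%, 89.4%, 65.5%, 63.1% and 33.1% in the +/fl-labelled library. Within groups the shares differed by Aire status in either direction. For the fl/fl-labelled library they were 95.1% of Aire-positive and 93.1% of Aire-negative Secretory-like cells, 74.5% of Aire-positive and 68.3% of Aire-negative Tuft-like cells, and 64.5% of Aire-positive and 68.0% of Aire-negative Aire-stage mTEC-like cells. For the +/fl-labelled library they were 63.2% of Aire-positive and 63.0% of Aire-negative Tuft-like cells. Cluster 7, with 1102 of the 2532 Aire-positive mTECs of the fl/fl-labelled library, had 57.3% of Aire-positive and 60.1% of Aire-negative cells there. Cluster 2, with 291 of the 936 of the +/fl-labelled library, had 75.6% and 73.7% there. Immature mTEC-like cells had 39.2% and 37.7% (fl/fl-labelled) and 35.7% and 32.7% (+/fl-labelled). Cluster 5 had 27.7% and 35% (fl/fl-labelled) and 50.9% and 42.6% (+/fl-labelled). A further setting, chosen after seeing the data, left out the named mimetic and Tuft-like clusters. The difference was then 5.19 points in the fl/fl-labelled library (54.6% of Aire-positive and 49.4% of Aire-negative mTECs). It was 17.3 points in the +/fl-labelled library (58.4% of Aire-positive and 41.1% of Aire-negative mTECs). The cells left in include clusters 7, 2 and 5 and the Immature mTEC-like clusters, which differ in breadth. The part of the cluster mix in these differences was not tested.

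Over many cells, mTECs called Aire-positive at 1 UMI showed more different members. This measure, the number of members expected in a fixed number of thinned cells, was also chosen after seeing the data. It was not computed for all genes, so these numbers do not set the members apart from other genes. In 900 cells of the fl/fl-labelled library, 53.6 members were expected among Aire-positive and 44.8 among Aire-negative mTECs. For the +/fl-labelled library the numbers were 40.4 among Aire-positive and 29.8 among Aire-negative mTECs. In 200 cells they were 31.9 among Aire-positive and 29.0 among Aire-negative mTECs of the fl/fl-labelled library, and 22.0 and 18.4 among those of the +/fl-labelled library. The gap between Aire-positive and Aire-negative cells was thus wider in more cells. At 5 or more Aire UMIs, mTECs of the fl/fl-labelled library had 29.6 members expected in 200 cells, close to the Aire-negative number. Cluster 7 alone, with 1102 of the 2532 Aire-positive mTECs of that library, had 36.8 members expected in 200 of its cells.

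**Figure D3:**
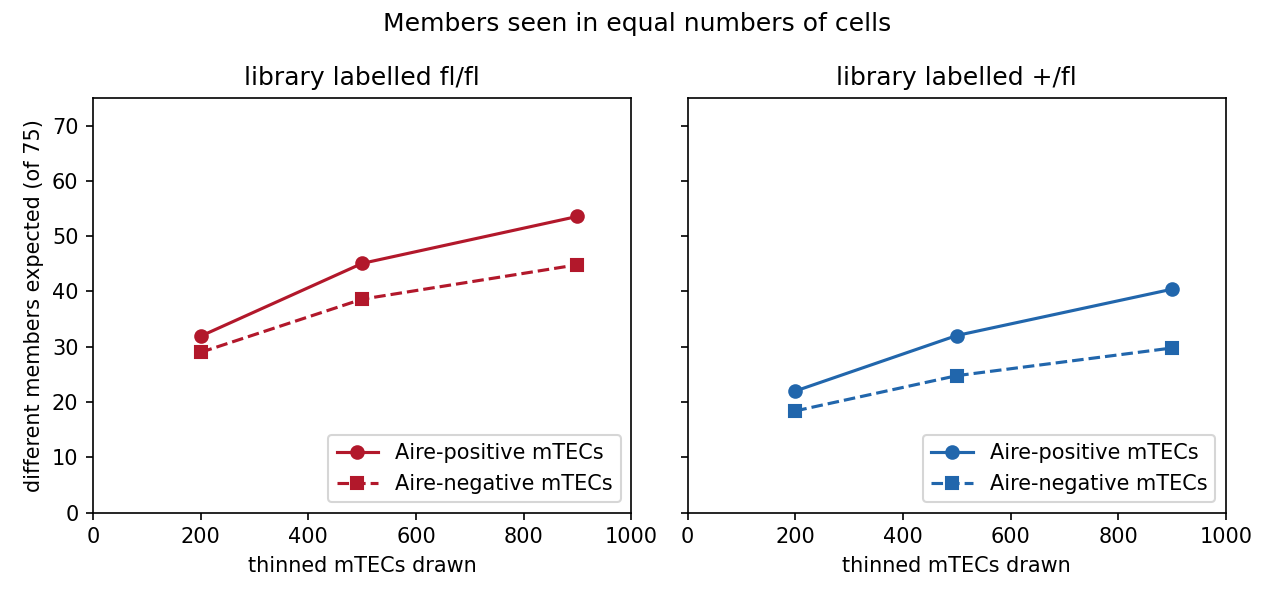
Number of different members expected in 200, 500 and 900 thinned mTECs, Aire-positive (solid line, circles) and Aire-negative (dashed line, squares), in each library. Aire-positive mTECs lie above Aire-negative ones at all 3 sizes. In 900 cells they had 53.6 against 44.8 members in the fl/fl-labelled library and 40.4 against 29.8 in the +/fl-labelled library. The measure was not computed for all genes.

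Single members were compared by Aire status. Of the 34 members with 20 or more UMIs in thinned mTECs, 2 were higher by 2-fold or more in Aire-positive mTECs of the fl/fl-labelled library and 3 were lower, where 8.95% and 2.49% of all genes passing the same minimum were. Of the same members, 1 was higher and 1 lower in the +/fl-labelled library, against 7.28% and 2.14% of all genes. These ratios are of CPM plus 1, which understates the change of low genes. The median log2 ratio of the members was -0.20 in the fl/fl-labelled library and 0.11 in the +/fl-labelled library, against -0.03 and -0.01 for all genes. Cyp1a2 was higher in both libraries, at 9.87 CPM in Aire-positive and 2.48 CPM in Aire-negative mTECs of the fl/fl-labelled library (log2 1.64). The +/fl-labelled library had 3.85 CPM in Aire-positive and 1.29 CPM in Aire-negative mTECs (log2 1.08). The latter ratio rests on few cells, with 18 UMIs in 4 Aire-positive and 15 UMIs in 3 Aire-negative cells. Cyp4f18 was higher in the fl/fl-labelled library, at 5.92 CPM in Aire-positive and 1.32 CPM in Aire-negative mTECs (log2 1.58), but not in the +/fl-labelled library, at 0.427 CPM in Aire-positive and 0.691 CPM in Aire-negative mTECs. The members that were lower by 2-fold in the fl/fl-labelled library were Cyp2f2, at 32.6 CPM in Aire-positive and 117 CPM in Aire-negative mTECs (log2 -1.81), Cyp2a5, at 305 CPM in Aire-positive and 634 CPM in Aire-negative mTECs (log2 -1.05), and Cyp3a11, at 0.790 CPM in Aire-positive and 2.97 CPM in Aire-negative mTECs (log2 -1.15). The 1 lower member of the +/fl-labelled library was Cyp2b19, at 1.28 CPM in Aire-positive and 5.01 CPM in Aire-negative mTECs (log2 -1.40), while Cyp2a5 was at 165 CPM in Aire-positive and 102 CPM in Aire-negative mTECs there (log2 0.70).

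Other genes of the pathway and other antigens were set beside the members. Of 14 other reported Aire-induced antigens tested, 6 were higher by 2-fold in Aire-positive mTECs of both libraries, where 3.46% of all genes were higher and 0.65% lower in both, with median log2 ratios of 1.03 in the fl/fl-labelled and 1.35 in the +/fl-labelled library. None of the 4 electron donors (Por and the cytochrome b5 system) passed 2-fold by Aire status in both libraries. Of 13 P450 genes of other families, 1 was higher in both, the retinoic acid hydroxylase Cyp26a1 (log2 1.87 and 2.93). Of 13 conjugation enzymes and pumps, 1 was lower in both, Gsta4 (log2 -1.38 and -1.59).

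Some members were held by a single cell group. A member was counted as held by a cell group with at least 50% of its UMIs there, at 5 times or more the CPM of all other cells, among the 43 members with 30 or more UMIs. At a cluster resolution of 2 the count was 10, and at a share of 70% it was 3. By the rule above 17 were held: 4 by the Secretory-like cluster, 4 by the Enterocyte-hepatocyte-like cluster and 9 by a cluster without a name, cluster 7. The share of all genes that meet the same rule was not computed, so the count does not set the members apart from other genes. The summed members reached 2741 CPM (fl/fl-labelled) and 2776 CPM (+/fl-labelled) in the Enterocyte-hepatocyte-like cluster and 2513 CPM (fl/fl-labelled) and 1809 CPM (+/fl-labelled) in the Secretory-like cluster. The Immature mTEC-like clusters had 122 CPM (fl/fl-labelled) and 96.1 CPM (+/fl-labelled) and the myeloid clusters 178 CPM (fl/fl-labelled) and 150 CPM (+/fl-labelled).

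The Secretory-like cluster, with its keratinocyte genes, held Cyp2f2, Cyp2b19, Cyp2d12 and Cyp3a57. Cyp2f2 had 498 CPM there in the fl/fl-labelled library and 490 CPM in the +/fl-labelled library, 61.6% of its UMIs and 23.7-fold the level elsewhere. At 5000 UMIs it was seen in 40.9% of these cells and 2.23% of myeloid cells in the fl/fl-labelled library, and in 58.7% and 1.64% in the +/fl-labelled library. Cyp2b19 had 80.5 CPM (fl/fl-labelled) and 76.2 CPM (+/fl-labelled) there, 68.2% of its UMIs. The intervals of the libraries overlap for both genes within the cluster. Cyp2d12 had 21.7 CPM there in the fl/fl-labelled library and 2.32 CPM in the +/fl-labelled library, and Cyp3a57 had 4.84 CPM (fl/fl-labelled) and 0 CPM (+/fl-labelled). At a resolution of 2, Cyp2b19 had 120 CPM in Keratinocyte-like and 7.06 CPM in Secretory-like cells over both libraries. There Cyp2b19 and Cyp3a57 were held by the Keratinocyte-like cluster, and Cyp2d12 by none, as also without its highest cell. Cyp2a5 was high there too, at 1585 CPM (fl/fl-labelled) and 759 CPM (+/fl-labelled), but passed no share of 50% in any group.

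The Enterocyte-hepatocyte-like cluster, led by Apoc3, Sis and Fabp1 and also by the microfold-cell gene Ccl20, held Cyp3a11, Cyp2c68, Cyp2a12 and Cyp2c29. Cyp3a11 had 23.4 CPM there in the fl/fl-labelled library and 4.93 CPM in the +/fl-labelled library, 51.2-fold the level elsewhere, with 63 of its 163 UMIs in 1 cell, and without that cell it was no longer held. Cyp2a12 had 11.9 CPM (fl/fl-labelled) and 9.85 CPM (+/fl-labelled), with 71.4% of its UMIs there, and Cyp2c68 had 15.6 CPM (fl/fl-labelled) and 14.8 CPM (+/fl-labelled). Cyp2c29 had 28.7 CPM in the fl/fl-labelled library, from 7 cells, and no UMI among the 52 cells of the +/fl-labelled library, and without its highest cell it was held by cluster 7 in place of this cluster. Cyp3a13 peaked in the same cluster, at 137 CPM (fl/fl-labelled) and 78.8 CPM (+/fl-labelled), with 39.4% of its UMIs. Cyp2a5 reached its highest level of any group there in both libraries, 2193 CPM (fl/fl-labelled) and 2363 CPM (+/fl-labelled), and was seen in 70.9% (fl/fl-labelled) and 83.3% (+/fl-labelled) of the cells at 5000 UMIs. A resolution of 2 also gave a Microfold-like cluster, and there Cyp2a5 had 3234 CPM over both libraries in Microfold-like and 747 CPM in Enterocyte-hepatocyte-like cells, and Cyp2c68 was no longer held.

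Cluster 7 had 1515 cells in the fl/fl-labelled library and 19 in the +/fl-labelled library, so it may be that library and not a type. Its leading genes were Mt4, Cga and S100a9, and over both libraries it had the most Aire of any group (675 CPM), at 680 CPM in the fl/fl-labelled library and 325 CPM in the +/fl-labelled library. It held 8.57% of member UMIs, below its 16.2% of all UMIs. It was the group with the highest level for 40 of the 69 members with 3 or more UMIs, and for 27 of the 29 with fewer than 50. The share of all genes highest there was not computed, so these counts may not be particular to the members. Among its fl/fl-labelled cells, 66 members had 3 or more UMIs, against 41 in the Aire-stage mTEC-like cluster. Depth was unequal, with medians over both libraries of 6893 UMIs per cell in the Aire-stage mTEC-like cluster and 13906 in cluster 7. Cyp1a2 had 71.8% of its UMIs there (23.4 CPM), from 57 of the 1515 cells of the fl/fl-labelled library and 0 of the 19 of the +/fl-labelled library. Outside cluster 7, Cyp1a2 was seen mainly in the unnamed cluster 2 of the +/fl-labelled library, with 133 UMIs among 666 cells. The other members it held were Cyp4f14 (64.2% of UMIs), Cyp2j12, Cyp2b10, Cyp2e1 (the ethanol-oxidising enzyme of liver), Cyp2c65, Cyp2c37, Cyp2c54 and Cyp2a4, with 56.2 to 82.9% of their UMIs. Without the highest cell of each, Cyp2c65 was no longer held. Cyp2c54 and Cyp2a4 then fell below the minimum of 30 UMIs, so their shares were not examined. At a resolution of 2, Cyp1a2, Cyp2e1 and Cyp2c65 were held by an unnamed cluster and Cyp2c54 by the Aire-stage mTEC-like clusters, and the other 5 by none. In 200 thinned cells, cluster 7 was expected to show 36.8 members, the Enterocyte-hepatocyte-like cluster 35.3, the Secretory-like cluster 30.2 and the Tuft-like clusters 15.2, all in the fl/fl-labelled library.

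Tuft-like cells held no member by the rule, but some members had moderate levels there that other groups also reached. Secretory-like cells had 129 CPM (fl/fl-labelled) and 331 CPM (+/fl-labelled) of Cyp2g1, and 44.4 CPM (fl/fl-labelled) and 46.0 CPM (+/fl-labelled) of Cyp2j6. At a resolution of 2, Cyp4v3 had 70.5 CPM in Enterocyte-hepatocyte-like and 29.0 CPM in Tuft-like cells over both libraries. Cyp2g1 had 156 CPM in Tuft-like cells of the fl/fl-labelled library and 111 CPM in those of the +/fl-labelled library, and was seen at 5000 UMIs in 39.9% of fl/fl-labelled and 31.5% of +/fl-labelled Tuft-like cells. The share in myeloid cells was 4.47% (fl/fl-labelled) and 5.33% (+/fl-labelled). Cyp2j6 had 55.4 CPM (fl/fl-labelled) and 54.2 CPM (+/fl-labelled), and was seen in 23.3% of fl/fl-labelled and 21.5% of +/fl-labelled Tuft-like cells, against 0.559% (fl/fl-labelled) and 3.28% (+/fl-labelled) of myeloid cells. Cyp4v3 had 14.7 CPM in Tuft-like cells of the fl/fl-labelled library and 33.5 CPM in those of the +/fl-labelled library. Endothelial-like cells, 12 in the fl/fl-labelled and 18 in the +/fl-labelled library, had 41.6% of all Cyp4b1 UMIs, 2 in the fl/fl-labelled and 35 in the +/fl-labelled library. Of Cyp1a1 they had 0 UMIs (fl/fl-labelled) and 52 UMIs (+/fl-labelled).

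**Figure D4:**
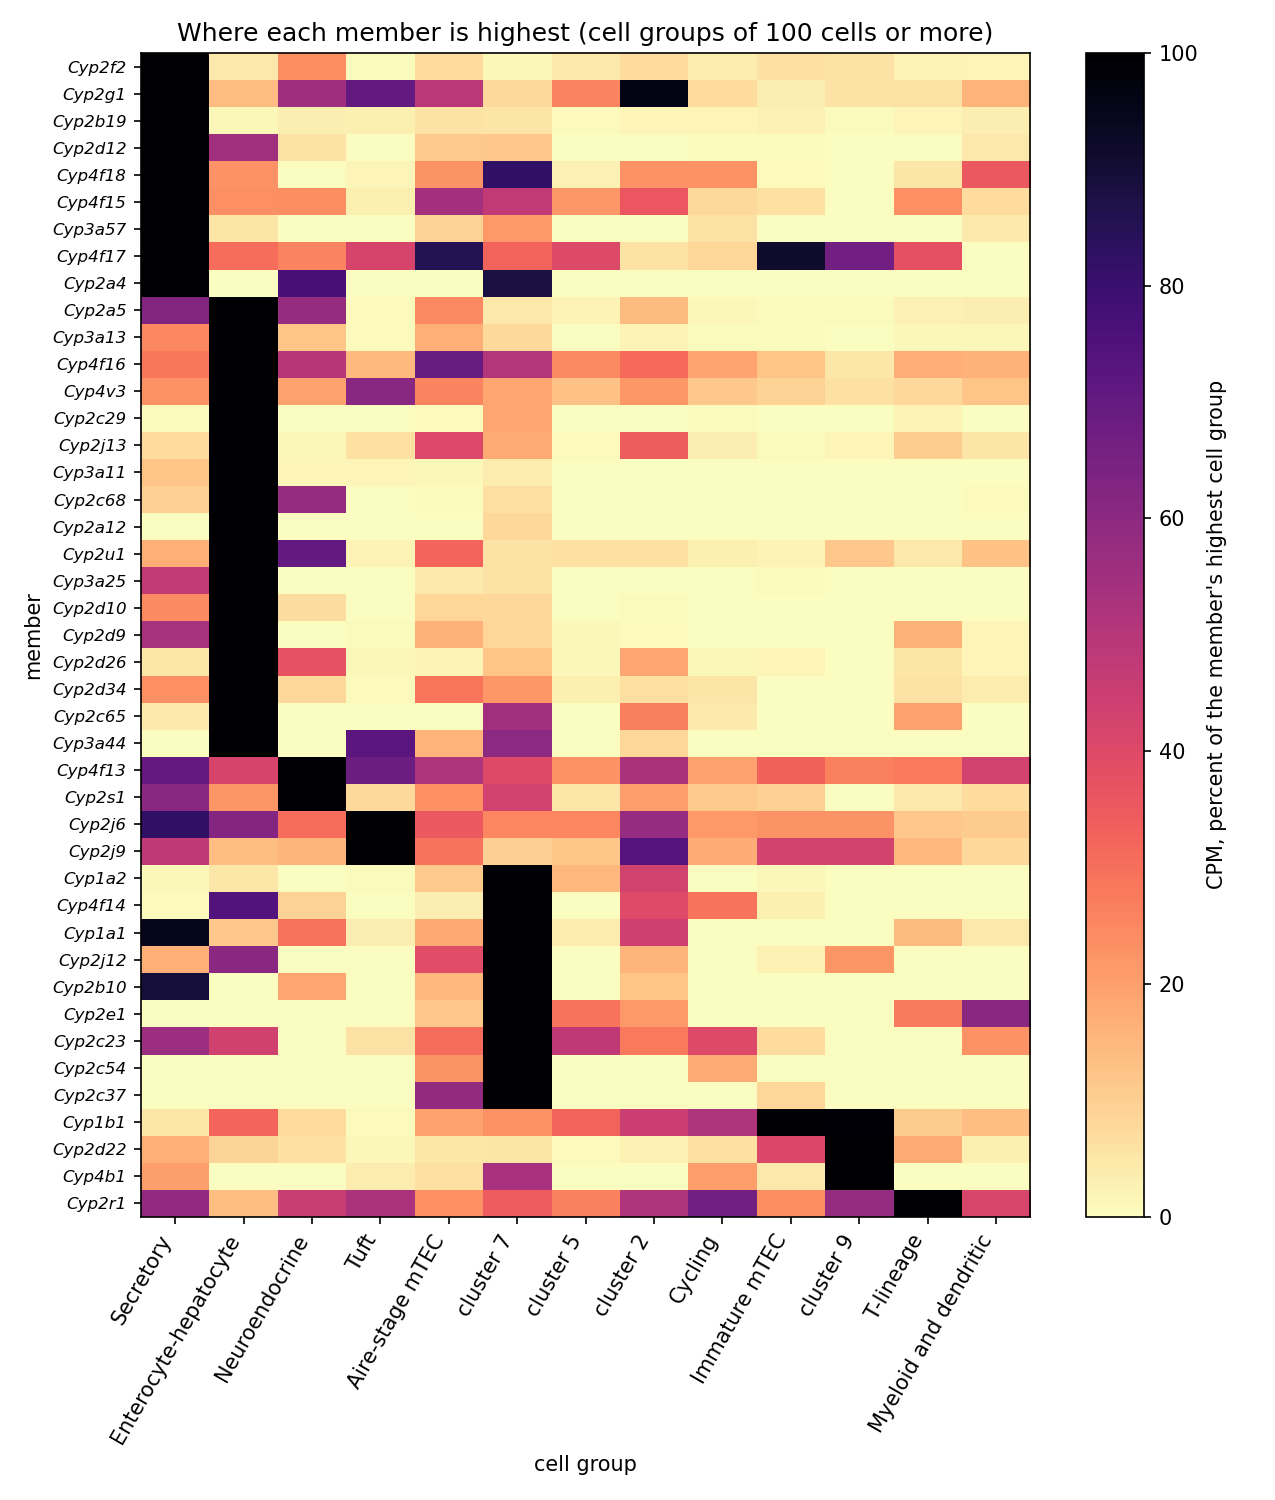
Level of each of the 43 members with 30 or more UMIs in the 13 cell groups of 100 or more cells, as pooled CPM of both libraries in percent of the member's highest group. Secretory-like cells are darkest for Cyp2f2, and for Cyp2b19, which at a resolution of 2 lay in Keratinocyte-like cells, Enterocyte-hepatocyte-like cells for Cyp3a11 and Cyp2a12, and cluster 7 for Cyp1a2.

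Between the libraries, most members had more UMIs per 1000000 in the fl/fl-labelled library. Of 40 members with 50 or more UMIs, 14 were higher by 2-fold or more over all kept cells and 0 were lower, where 10.2% and 2.43% of all genes were. The median log2 ratio of the members was 0.68, against 0.04 for all genes, and the sum of all members had a log2 ratio of 0.93. The highest ratios were those of Cyp3a13 (log2 2.05), Cyp2c29 (1.98), Cyp2d12 (1.73) and Cyp2a5 (1.57), and the lowest were those of Cyp2g1 (-0.89) and Cyp2j9 (-0.63). With Cyp2a5 left out, the log2 ratio of the sum was 0.28. Among the lists, 6 of 11 liver members were higher, 1 of 4 airway and olfactory members and 2 of 8 widely expressed members. The 1 tested skin member and 1 of 3 aryl hydrocarbon receptor targets were also higher, and the 1 tested gut member was not. Of 7 genes known to be higher in female than male mouse liver, 1 was tested (Cyp3a44) and had 0.482 CPM in the fl/fl-labelled library and 0.510 CPM in the +/fl-labelled library.

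Cell composition differed between the libraries. The Enterocyte-hepatocyte-like cluster had 390 cells in the fl/fl-labelled library and 52 in the +/fl-labelled library, the Secretory-like cluster 594 (fl/fl-labelled) and 120 (+/fl-labelled), and the Tuft-like clusters 812 (fl/fl-labelled) and 1847 (+/fl-labelled). With the named mimetic and Tuft-like clusters left out, 6 of the 40 members were higher and 1 lower, where 10.2% and 1.4% of all genes were, and the log2 ratio of the sum was 0.22. Within groups of 100 or more cells in both libraries, 0 to 2 members were higher. In Secretory-like cells 2 of 13 were higher and 1 lower (5.55% and 2.63% of all genes), namely Cyp2d12 (log2 2.77), Cyp2a5 (1.06) and Cyp2g1 (-1.36, at 129 CPM in the fl/fl-labelled library and 331 CPM in the +/fl-labelled library). In Tuft-like cells 1 of 9 was higher, Cyp2a5 (1.23), and 1 lower, Cyp4v3 (-1.14), where 3.88% and 2.52% of all genes were. In Immature mTEC-like cells 1 of 10 was higher, Cyp2a5 (1.24), at 21.2 CPM in the fl/fl-labelled and 8.40 CPM in the +/fl-labelled library, and 0 were lower, where 1.27% and 0.962% of all genes were. Among cycling cells 0 of 6 were higher and 2 lower, Cyp2g1 (-2.25) and Cyp2f2 (-1.04), where 2.04% and 2.44% of all genes were. In myeloid cells 1 of 5 members was higher, Cyp4f16 (1.26), and 1 lower, Cyp2g1 (-1.69, at 10.9 CPM in the fl/fl-labelled and 37.5 CPM in the +/fl-labelled library), where 2.46% and 3.1% of all genes were, and Cyp2a5 had 103 CPM (fl/fl-labelled) and 58.1 CPM (+/fl-labelled). The part of free RNA in these low levels was not tested.

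Among thinned Aire-positive mTECs, 9 of 21 members were higher in the fl/fl-labelled library and 1 lower, where 14.1% and 3.57% of all genes were. Cyp4f18 had 5.92 CPM in the fl/fl-labelled library and 0.427 CPM in the +/fl-labelled library (log2 2.28), and Cyp2g1 had 38.9 CPM in the fl/fl-labelled and 100 CPM in the +/fl-labelled library (log2 -1.34). Among Aire-negative mTECs 13 of 26 were higher and 0 lower, where 11.2% and 3.69% of all genes were. Of the other genes set beside the members, 10 of 14 conjugation enzymes and pumps were higher in the fl/fl-labelled library over all kept cells, such as the glutathione transferase Gsta2, at 144 CPM (fl/fl-labelled) and 33.4 CPM (+/fl-labelled). So were 12 of 14 other Aire-induced antigens. The electron donors had 0 of 4 past 2-fold, with Por at 37.4 CPM (fl/fl-labelled) and 23.7 CPM (+/fl-labelled). Of 17 receptors and factors, 2 were higher, Foxa1, at 21.5 CPM (fl/fl-labelled) and 4.87 CPM (+/fl-labelled), and Hnf4g, at 12.4 CPM (fl/fl-labelled) and 3.51 CPM (+/fl-labelled). Of 13 P450 genes of other families, 3 were higher, the steroid-forming Cyp17a1 (log2 2.15), Cyp11a1 (1.05) and Cyp11b1 (1.02).

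**Figure D5:**
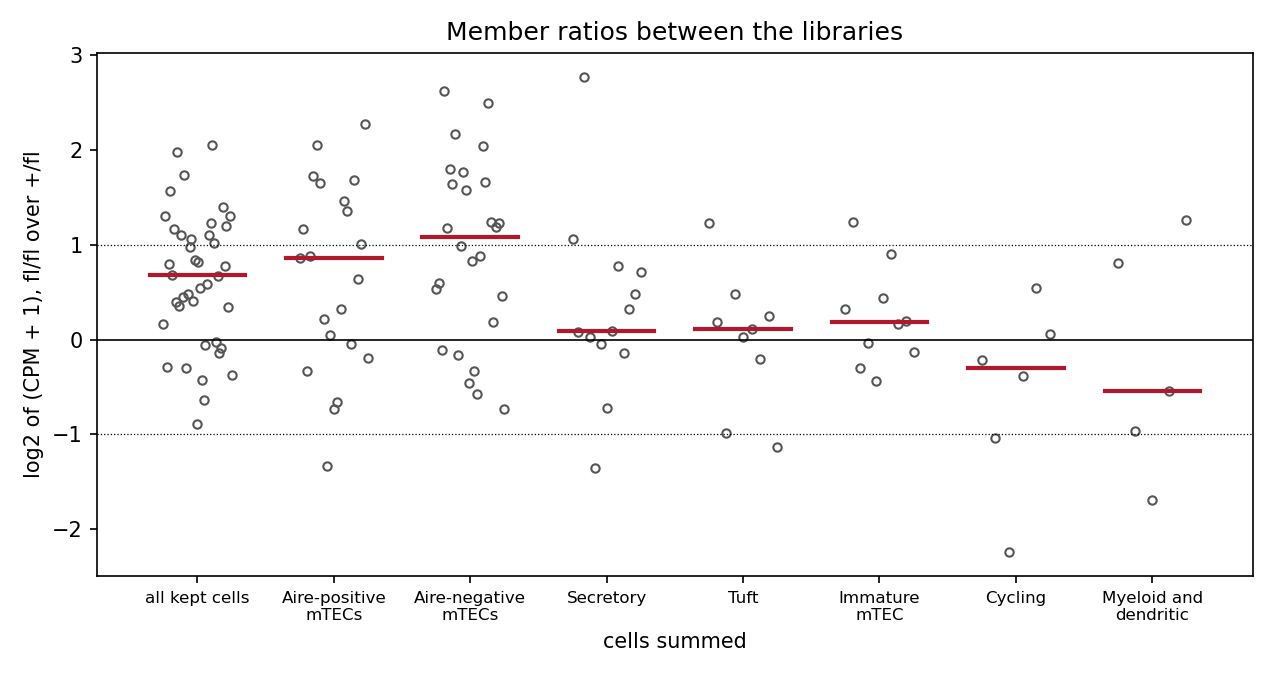
Log2 ratio of the fl/fl-labelled library over the +/fl-labelled library for each tested member (CPM plus 1) in 8 sets of cells, with the members' median as a red line and 2-fold as dotted lines. The median was 0.68 over all kept cells, 0.09 in Secretory-like cells and 0.11 in Tuft-like cells.

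Counts of near-identical members are uncertain. In the last 300 bases of the transcript, where the kit's tags lie, 21 members were at least 90% identical to another gene. Cyp2a4 was 97.3% identical to Cyp2a5, but the last 300 bases of Cyp2a5 itself had no match to another gene. Cyp2c68 and Cyp2c40 were 98% identical in both directions. Reads of such near-identical ends may be split or dropped by the counting.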

How the data were processed

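Single-cell 3′ RNA libraries of sorted mTECs were deposited as raw matrices of UMI counts, 1 per genotype. The counts were made by the authors with Cell Ranger and examined with Seurat, per the submitters' processing notes, and the file headers name software version 3.1.0. For the counting, build and gene models were not given in the sources used here. Gene positions were looked up by Ensembl ID in GENCODE M21 (GRCm38). The fl/fl-labelled library had 11095 barcodes with 99871505 UMIs and the +/fl-labelled library 7304 with 85260592.

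Cells with at least 500 genes and 1000 UMIs and at most 15% mitochondrial UMIs were kept. Scrublet's own threshold marked 0% and 0.0196% of cells as doublets and had not worked, so the highest scores were removed at 0.8% per 1000 cells (539 and 208 cells). Both libraries were clustered jointly with scanpy 1.11.5 (2000 variable genes without the members, 30 components, 15 neighbours, resolution 1). A cluster was named from marker lists where at least 3 markers were 2-fold higher in it and either a list's gene was among its top 10 or 75% of the list was met. The naming rule was fixed with the clusters in view, and clusters 2, 5, 7 and 9 stayed unnamed. Names may differ from the study's. The mTECs are the cells of epithelial clusters.

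No test was made, since each genotype has 1 library. mTECs were thinned to 5000 UMIs (seed 1). Ratios are log2 of CPM with 1 CPM added, called at 2-fold, for genes with 20 or more UMIs in thinned mTECs or 50 or more in other sets of cells. Members and lists were chosen with earlier results of these data known. Any member could be named: values are given for those with 50 or more UMIs, in full for the 25 with most and for those held by a cell group, and the rest by ranges and counts. Promoters are RefSeq's. Counting steps were tested on simulated data. Python 3.11.15, numpy 2.4.6, scipy 1.17.1 and, for TMM factors as an alternative, edgeR 4.0.16 in R 4.3.3 were used. Alternatives in depth, Aire call, filters, doublets, scaling, pseudocount and clustering were tried.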

Additional observations from a re-analysis of the deposited data

Results flagged for a closer look

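The share of mTECs with a member moved in opposite directions with Aire in the libraries: Aire-positive minus Aire-negative was -3.44 percentage points in the fl/fl-labelled library and 5.61 points in the +/fl-labelled library. With 1 library each, this difference between libraries was not tested, and neither were those below.

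Several tested members had log2 ratios of Aire-positive over Aire-negative mTECs with opposite signs in the libraries. Those that also differed by 1 or more between the libraries on the log2 scale were Cyp2a5 (-1.05 in the fl/fl-labelled library and 0.70 in the +/fl-labelled library), Cyp3a13 (-0.67 and 0.47) and Cyp4f18 (1.58 and -0.24). Rarer liver members came out the same way, at -0.80 and 0.51 for Cyp2d9, -0.68 and 0.86 for Cyp2d26, and -0.96 and 0.51 for Cyp2a12. In the +/fl-labelled library these rest on 2 UMIs in Aire-positive and 0 in Aire-negative mTECs for Cyp2d9 and Cyp2a12, and on 6 and 3 for Cyp2d26, so no direction can be read from them. Cyp4f18 there had 2 UMIs in Aire-positive and 8 in Aire-negative mTECs.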

How the results depend on the processing

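Of 75 values recomputed under an alternative, 47 stayed close to the reported one, 26 moved and 2 changed direction. No paired analysis was possible because each genotype has 1 library, and no replicate could be left out. The difference in breadth in the fl/fl-labelled library (-3.44 points) was 16.0 with no thinning and 5.19 with the named mimetic and Tuft-like clusters left out, both turned round, and -6.40 at 2000 UMIs, -6.96 at 8000 and -0.582 with Aire status from the whole cell. In the +/fl-labelled library (5.61 points) it was 16.8 with no thinning, 10.1 at 2 or more Aire UMIs, 14.7 at 5 or more, 13.1 without Tuft-like clusters, 17.3 without named mimetic and Tuft-like clusters and 1.498 without Cyp2a5. With 5 CPM added, 0 members were higher in Aire-positive mTECs of either library and 0 lower in the +/fl-labelled library. With 2 or more Aire UMIs, 7 were lower in the fl/fl-labelled library, and 2 were higher and 3 lower in the +/fl-labelled library. Members held by a cell group (17) numbered 10 at resolution 2 and 3 at a share of 70%, and without each member's highest cell 14, of which 12 were among the 17. The log2 ratio of the members' sum (0.93) was 0.98 as a mean of CPM per cell, 0.82 with TMM factors, 0.83 without Tuft-like clusters, 0.28 without Cyp2a5 and 0.22 without named mimetic and Tuft-like clusters. Of the 14 members higher in the fl/fl-labelled library, the count was 2 with 5 CPM added and 6 without named mimetic and Tuft-like clusters, and 1 was lower without Tuft-like clusters and also without both. The cause was not tested for any of these. The alternatives with 5 or more Aire UMIs, with mimetic clusters left out, without the highest cell, with thinned library totals, and without Cyp2a5 for the sum were chosen after seeing the data. Detection of 69 and 47 members moved by less than 1.5 times under every alternative tried. Depth limits the 29 members with 3 to 49 UMIs, whose cell groups rest on few cells.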
